A study of Homo sapiens with 4 samples.

Results

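The miR-378 family was followed through small RNA libraries of a circHIPK3 pull-down in human RD cells. It was taken as 6 named rows of the count table, hsa-miR-378a-3p, hsa-miR-378a-5p, hsa-miR-378c, hsa-miR-378d, hsa-miR-378i and hsa-miR-422a (written below without the species prefix), out of 2656 mature miRNAs listed. All 6 rows were present. Only 5 of them had a read in any library, since miR-422a had 0 reads throughout, and only the 2 arms of miR-378a reached 20 reads in a library, the minimum for a comparison. As counted by the authors, nearly all reads of the family were assigned to the 2 arms of miR-378a, from the hairpin MIR378A.

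RD is an established human cell line from an embryonal rhabdomyosarcoma, a soft tissue tumour of the muscle lineage, and its cells were untreated. Lysates were incubated with biotinylated antisense probes that were captured on streptavidin beads. The EVEN and ODD libraries came from separate probe sets against exon 2 of HIPK3, the exon that forms the circular RNA circHIPK3. The LacZ library came from probes against a bacterial mRNA, and the input library from lysate RNA. Each of these 4 groups had 1 library, from 1 biological replicate of 1 cell line, so no difference below has a replicate check. Exon 2 is shared with the linear HIPK3 mRNA, and the recovery of circHIPK3 and the probe sequences were not analysed here.

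The libraries held 98950 miRNA reads for EVEN, 426450 for ODD, 425395 for LacZ and 2987858 for the input. A count of 0 allows a level of up to 30.3 CPM in EVEN, 7.03 in ODD, 7.05 in LacZ and 1.00 in the input, taking 3 counts as the limit. CPM are read counts scaled to the same library total in every library. The input fitted the muscle label of the line, with 42097 CPM for miR-206, 13995 for miR-1-3p, 5012 for miR-133a-3p and 1021 for miR-133b. Markers of liver, neurons and blood (miR-122-5p, miR-124-3p, miR-142-3p and miR-451a) had 0 to 18 input reads each, at most 6.02 CPM. The epithelial miR-200c-3p and miR-141-3p had 90 and 196 input reads, or 30.1 and 65.6 CPM. Intervals given with folds and levels are exact 95% intervals that cover counting error only. They describe these libraries, not the conditions.

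MicroRNAs are short RNAs cut from a hairpin, and either arm of the hairpin can be loaded into an Argonaute protein, where bases 2 to 8, the seed, choose the target mRNAs. miR-378a is encoded in an intron of PPARGC1B, the gene of the coactivator PGC-1β, which drives mitochondrial and oxidative genes. In mouse myoblasts miR-378a-3p rises during differentiation and represses MyoR, an inhibitor of MyoD. In mice the 3p arm also represses Crat, a carnitine acetyltransferase, and the 5p arm represses Med13, a Mediator subunit. The 5p arm is also known to repress ESRRG and GABPA, regulators of oxidative metabolism.

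The hairpin is shown because the results turn on its arms. MIR378A lies at chr5:149732825-149732890 on the plus strand of GRCh38, within an intron of PPARGC1B and on the same strand. The mature arms are in capitals, miR-378a-5p first and miR-378a-3p second, in the RefSeq sequence (GRCh38.p14).
MIR378A: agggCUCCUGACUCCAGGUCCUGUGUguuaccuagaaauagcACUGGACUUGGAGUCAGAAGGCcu

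The mature sequences of 5 of the 6 members matched a RefSeq entry and are given with the seed in capitals, since they show which members reads could be shared between.
miR-378a-3p: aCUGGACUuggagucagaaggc
miR-378c: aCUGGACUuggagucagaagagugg
miR-378i: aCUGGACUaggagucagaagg
miR-422a: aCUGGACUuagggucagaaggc
miR-378a-5p: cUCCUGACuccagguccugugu

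miR-378a-3p, miR-378c, miR-378i and miR-422a share 1 seed, CUGGACU, and miR-378a-5p has another, UCCUGAC. miR-378a-3p lies at chr5:149732867-149732888 and miR-378a-5p at chr5:149732829-149732850, both on the plus strand and 22 nt long. miR-378c (25 nt, chr10:130962634-130962658, minus strand, outside an annotated host gene) has the first 20 bases of miR-378a-3p and then differs. Counted from the 5′ end, miR-378i (21 nt, chr22:41923271-41923291, minus strand, in an exon of TNFRSF13C) differs from miR-378a-3p by U9A. miR-422a (22 nt, chr15:63870989-63871010, minus strand, no annotated host gene) differs from it by G10A and A12G. How the authors' counting placed reads that fit several of these miRNAs is, in the sources used here, not given, so a split between miR-378a-3p and the rare members is uncertain. The seed of the 5p arm was carried by no other mature miRNA of the RefSeq table.

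miR-378a-3p, the arm usually treated as the guide strand, was measured in every library. It had 56 reads in EVEN, 100 in ODD, 362 in LacZ and 2041 in the input, or 566 CPM (428 to 735), 234 CPM (191 to 285), 851 CPM (766 to 943) and 683 CPM (654 to 713). By library totals LacZ was highest and ODD lowest, and EVEN and the input could not be ordered beyond counting error.

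miR-378a-5p had a different profile. It had 18 reads in EVEN, 32 in ODD, 1382 in LacZ and 959 in the input, or 182 CPM (108 to 287), 75.0 CPM (51.3 to 106), 3249 CPM (3080 to 3425) and 321 CPM (301 to 342). The LacZ library stood far above the other 3, and its 1382 reads exceeded those of the input, although the input library was far deeper. By reads, miR-378a-5p ranked 147 of 439 miRNAs with a read in EVEN, 169 of 592 in ODD, 50 of 745 in LacZ and 147 of 1146 in the input.

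**Figure D1:**
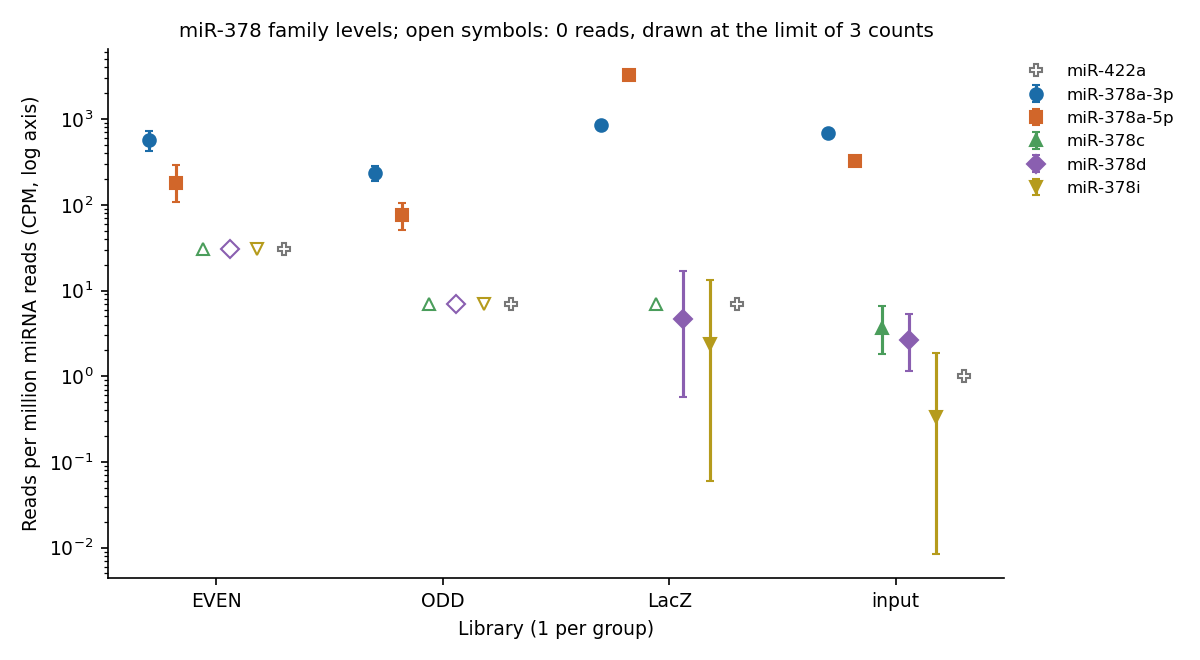
Level of each family member (CPM, log axis) in the 4 libraries, with 95% exact Poisson intervals; open symbols mark 0 reads and stand at the level of 3 counts. The 2 arms of miR-378a lie far above the other members, and miR-378a-5p stands above miR-378a-3p only in LacZ (3249 against 851 CPM).

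The rare members, encoded at other loci, were seen at the bottom of the range. miR-378c had 11 reads in the input (3.68 CPM) and 0 in EVEN, ODD and LacZ. miR-378d had 2 reads in LacZ and 8 in the input, and miR-378i 1 and 1, with 0 in EVEN and ODD. The input levels of these 3 were below the limit that a count of 0 sets in each pull-down, so a loss in the pull-downs was not detectable at this depth. Together miR-378c, miR-378d, miR-378i and miR-422a gave 3 reads in LacZ and 20 in the input. Of the reads of these members and miR-378a-3p together, miR-378a-3p made up 100% in EVEN and ODD, 99.2% in LacZ and 99.0% in the input. Of the further rows named miR-378, miR-378e had 1 input read and miR-378f 3, and miR-378b, miR-378g, miR-378h and miR-378j had 0 in every library.

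The arms of miR-378a can be compared within a library, where the library total plays no part. Of the miR-378a reads, the 3p arm took 75.7% in EVEN (64.3 to 84.9, of 74 reads), 75.8% in ODD (67.5 to 82.8, of 132), 20.8% in LacZ (18.9 to 22.7, of 1744) and 68.0% in the input (66.3 to 69.7, of 3000). The 3p arm was thus the major arm in EVEN, ODD and the input, and the minor one in LacZ. Ligation and amplification can favour an arm, so a share is one of reads, not of molecules.

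**Figure D2:**
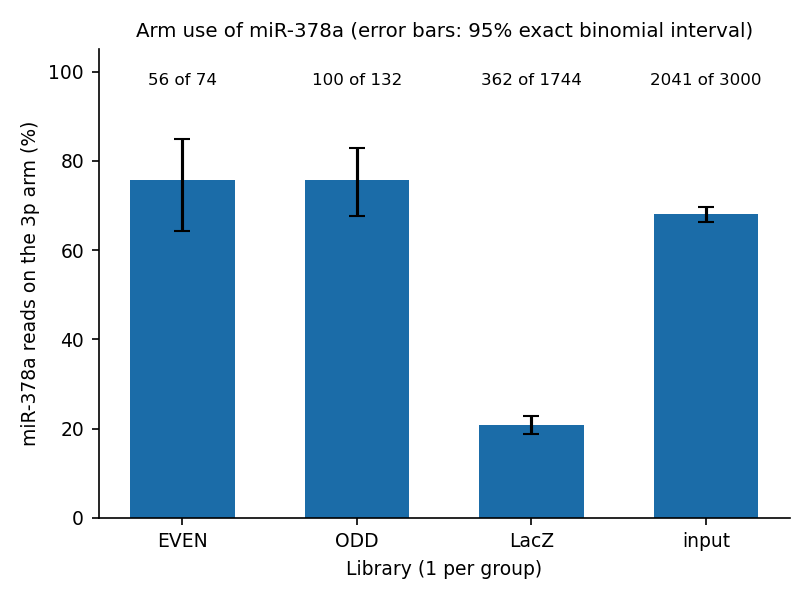
Share of miR-378a reads on the 3p arm (%) in each library, with 95% exact binomial intervals; the numbers above the bars are 3p reads of all miR-378a reads. LacZ stands at 20.8%, and the other 3 libraries between 68.0 and 75.8%.

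The 3p-to-5p read ratio was 11.9-fold higher in EVEN than in LacZ (6.77 to 21.7) and 11.9-fold higher in ODD than in LacZ (7.78 to 18.6). Both comparisons use the same LacZ library. Against the input the ratio was 1.46 times that of the input in EVEN (0.841 to 2.66) and 1.47 times in ODD (0.969 to 2.28), and both intervals include 1. EVEN and ODD had a ratio of ratios of 0.996 (0.490 to 2.07), an interval that reaches about 2-fold on either side. LacZ had 0.123 times the input ratio (0.107 to 0.142). Of the 3 pull-downs, LacZ was the one whose interval against the input did not include 1.

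To place this shift, arm pairs of the same name were compared in the same way, a step chosen after the values of miR-378a had been seen. Pairs needed 5 reads per arm and 20 per pair in both libraries, so pairs with an arm at 0 were left out. For EVEN over LacZ, miR-378a had the second largest move to the 3p arm of 45 pairs, at 3.57 on the log2 scale against a median of 0.07. For ODD over LacZ its move of 3.58 ranked 3 of 65, against a median of -0.26. In LacZ over the input its move of -3.02, towards the 5p arm, ranked 6 from the lowest of 98. Moves of at least 2-fold were common, with 11 pairs moving to 3p and 12 to 5p in EVEN over LacZ, 12 and 19 in ODD over LacZ, and 25 and 25 in LacZ over the input.

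Of 102 arm pairs with at least 20 reads in every library, 2 had under 50% of reads on the 3p arm in LacZ and over 50% in EVEN, ODD and the input. miR-378a was among them, but its own pattern set this criterion, so it had to meet it. The other was miR-409, of the imprinted 14q32 cluster, at 87.0% in EVEN, 97.5% in ODD, 27.6% in LacZ and 90.1% in the input. Pairs with under 50% on the 3p arm in the input, such as miR-335 at 9.55%, could not meet it. The count of 2 therefore does not show how rare such a pattern is.

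**Figure D3:**
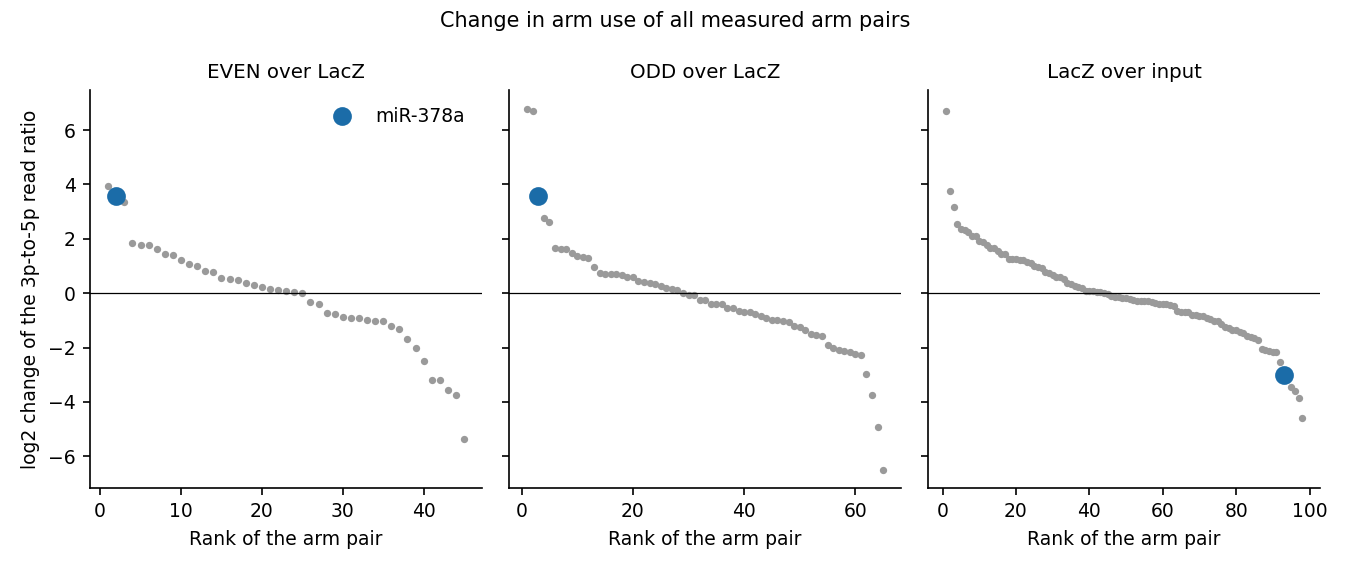
Change of the 3p-to-5p read ratio (log2) of each measured arm pair, ranked from the largest move to 3p, in EVEN over LacZ, ODD over LacZ and LacZ over the input; the large point is miR-378a. It stands at 3.57 and 3.58 near the top of the first 2 panels and at -3.02 near the bottom of the third.

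Set against LacZ, the comparison that asks what the HIPK3 probes recovered beyond control probes, neither arm of miR-378a was higher with either probe set. The rare members had too few reads to be tested. A call means a difference of at least 2-fold in the share of the library, and log2 ratios have 0.5 added to each count. With EVEN probes miR-378a-5p was 17.9-fold lower than in LacZ (11.3 to 30.2), a log2 ratio of -4.12. miR-378a-3p was 1.504-fold lower with EVEN (1.13 to 2.03), a log2 ratio of -0.58, under the call. Thus 1 of the 2 tested members was called lower, where 51.2% of all 289 tested miRNAs were called lower by library totals, and 37.0% with median-of-ratios size factors. Over all tested miRNAs the log2 ratios had a median of -1.06. Relative to that median miR-378a-3p stood at 0.48 and miR-378a-5p at -3.06. A scaling shifts all log2 ratios of a comparison alike, so these 2 values cannot change with it. The 5p arm ranked 15 from the lowest of 289.

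With ODD probes miR-378a-5p was 43.3-fold lower than in LacZ (30.5 to 63.5), a log2 ratio of -5.41. miR-378a-3p was 3.63-fold lower with ODD (2.90 to 4.58), a log2 ratio of -1.85. Both tested members were called lower, where 70.3% of 300 tested miRNAs were called lower. That background was 34.3% with TMM factors and 32.0% with size factors, under which miR-378a-3p lost its call at -0.57 and -0.41. The median of all tested was -1.79, so miR-378a-3p stood at -0.06 from it, close to the middle of the tested miRNAs. miR-378a-5p stood at -3.62 from it, ranking 12 from the lowest of 300.

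**Figure D4:**
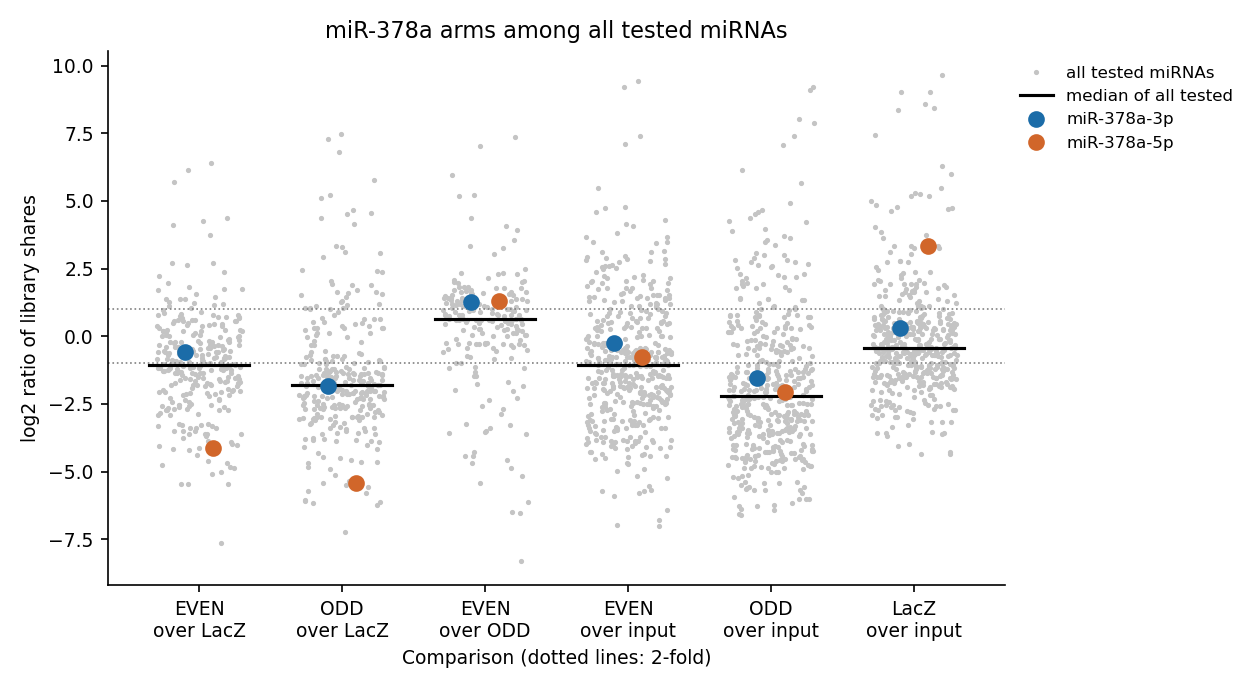
Log2 ratios of library shares of all tested miRNAs (small points), their median (line) and the 2 arms of miR-378a (large points) in 6 comparisons; dotted lines mark 2-fold. miR-378a-5p lies at -4.12 and -5.41 against LacZ and at 3.34 in LacZ over the input, while miR-378a-3p stays between -1.85 and 1.28.

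The input places these values. In LacZ over the input, which shows what control probes and beads retained, miR-378a-5p was 10.1-fold higher (9.31 to 11.002), a log2 ratio of 3.34 that ranked 26 from the highest of 475 tested miRNAs. miR-378a-3p was 1.25-fold higher (1.11 to 1.39), a log2 ratio of 0.32 that turned to -0.28 with TMM factors. One of the 2 tested members was called higher, against 18.1% of all tested, with a median log2 ratio of -0.44 over all.

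In EVEN over the input neither arm was called. miR-378a-3p was 1.21-fold lower (0.926 to 1.60) and miR-378a-5p 1.76-fold lower (1.11 to 2.99), the second from 18 EVEN reads, where 52.2% of 464 tested miRNAs were called lower. The log2 ratios were -0.26 and -0.78 against a median of -1.06 over all tested. The 464 include miRNAs with 0 EVEN reads, whose ratios rest on the count added before the log. Among these, miR-208b-3p was called lower with 0 reads in EVEN and 34 in the input. Its input level of 11.4 CPM lay below the limit of 30.3 CPM that a count of 0 sets in EVEN. The share called lower and the median therefore partly reflect the depth of EVEN. TMM factors put miR-378a-5p at -1.12, past the call, where 60.8% of the tested miRNAs were called lower, and totals without the 10 most abundant miRNAs turned miR-378a-3p to 0.37.

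In ODD over the input miR-378a-3p was 2.91-fold lower (2.38 to 3.60) and miR-378a-5p 4.28-fold lower (3.01 to 6.29). Both were called lower, where 68.6% of 468 tested miRNAs were called lower. The log2 ratios were -1.54 and -2.08, or 0.66 and 0.12 above the median of -2.19 over all tested. The call of miR-378a-3p was lost with TMM factors (-0.85) and those of both arms with size factors (-0.37 and -0.91), where 57.7% and 50.6% of all tested miRNAs were called lower under these scalings. Relative to the medians of all tested miRNAs over the input, the 5p arm thus stood at 0.28 in EVEN and 0.12 in ODD. Relative to the medians over LacZ it stood at -3.06 and -3.62. These medians are over different sets, of 464 and 468 miRNAs over the input and 289 and 300 over LacZ. The sets over the input include miRNAs with 0 reads in EVEN or ODD, such as miR-499a-5p.

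Between the probe sets, both arms had the larger share with EVEN. miR-378a-3p was 2.41-fold higher with EVEN than with ODD probes (1.71 to 3.38), and miR-378a-5p 2.42-fold higher (1.28 to 4.45). Both were called higher, where 37.9% of 203 tested miRNAs were, with a median log2 ratio of 0.64 over all. Relative to it the arms stood at 0.64 and 0.66. With TMM factors, size factors or totals without the 10 most abundant miRNAs neither arm was called, at 0.23 to 0.90, and the share of all tested miRNAs called higher was 9.85%, 9.36% and 22.7% under these scalings.

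Other miRNAs of the muscle lineage were taken from a list of 8. Of 5 tested against LacZ, 2 were called higher and 1 lower with EVEN probes, and 0 higher and 3 lower with ODD probes. With size factors 4 were called higher and 1 lower with EVEN, where 14.9% of all tested miRNAs were called higher and 37.0% lower. With ODD probes 0 of the 5 were then called in either direction, where 22.7% of all were called higher and 32.0% lower. By library totals 9.69% of all tested miRNAs were called higher with EVEN and 13% with ODD probes, beside the shares called lower given above. The 5 list members had median log2 ratios of 0.69 with EVEN and -1.78 with ODD, beside -1.06 and -1.79 over all tested miRNAs. miR-133a-3p, which supports myoblast growth, had 641 reads in EVEN, 338 in ODD and 1272 in LacZ. Its share was 2.17-fold that of LacZ with EVEN probes (1.97 to 2.38) and 3.77-fold lower than LacZ with ODD probes (3.34 to 4.27). miR-133b was also higher with EVEN, at 2.72-fold (1.74 to 4.19), from 36 reads against 57 in LacZ. With ODD probes miR-133b was called lower than in LacZ, at a log2 ratio of -2.09 from 13 reads. The interval of that fold was 2.38 to 8.75. miR-206, which promotes myoblast differentiation, stood 1.62-fold above LacZ with EVEN (1.58 to 1.65) and 1.80-fold below it with ODD probes (1.77 to 1.84), where the log2 ratio turned from -0.85 to 0.44 with TMM and 0.598 with size factors. miR-1-3p was lower with both, at 2.96-fold (2.52 to 3.50) and 3.44-fold (3.14 to 3.77). miR-486-5p stood 1.58-fold above LacZ with EVEN (1.44 to 1.73) and 1.90-fold below it with ODD probes (1.75 to 2.06), where TMM turned -0.93 to 0.36 and size factors to 0.52. miR-208a-3p, miR-208b-3p and miR-499a-5p, encoded in myosin genes, had 0 reads in EVEN and ODD and 0 to 7 in LacZ. The input level of miR-499a-5p (90.4 CPM) lay above the limits that a count of 0 sets in EVEN and ODD. That of miR-208b-3p (11.4 CPM) lay above the limit in ODD only, and that of miR-208a-3p (1.00 CPM) above neither.

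The profiles most like that of miR-378a-3p over the 4 libraries were those of miR-942-5p and miR-361-5p, at nearly equal distance. Likeness was the distance between log2 CPM profiles, each centred on its own mean, among 133 other miRNAs with at least 20 reads in every library. miR-942-5p had a distance of 0.15, miR-361-5p of 0.15 and miR-501-5p of 0.27, where the median of the 133 was 1.81. The distances take no account of counting error, and miR-942-5p had only 20 reads in EVEN and 34 in ODD. Their order is therefore not firm. miR-361-5p, the most abundant of the 3, had 1162 CPM in EVEN, 537 in ODD, 1693 in LacZ and 1448 in the input.

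Exon 2 of HIPK3 (chr11:33286413-33287511, plus strand, 1099 nt, GENCODE release 29) was searched on its sense strand for the complements of both seeds, with the join of the circle included. The 7-letter complement of the 3p seed, AGTCCAG, occurred 0 times, and that of the 5p seed, GTCAGGA, 0 times. In central windows of the same length, from the longest coding transcript of each of 17639 genes, 9.33% and 9.07% held these letters. The 6-letter forms GTCCAG and TCAGGA, part of those motifs, were also absent from the exon, and 28.8% and 37.6% of windows held them. This says only that these letters are not in this exon.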

How the data were processed

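The authors deposited raw read counts per mature miRNA and CPM for 4 small RNA libraries, prepared with the QIAseq miRNA kit and read single-end, per the labels' protocols. The deposited CPM equal each count over its library total to within 1.46e-11. The submitters' processing notes name GRCh38. Not given in the sources used here are the aligner, the miRNA annotation, the placing of reads that fit several miRNAs and the use of molecular identifiers. Counts that still hold amplified copies would make the counting intervals too narrow.

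With 1 library per group, no test across replicates was made. Ratios are of (count + 0.5) over the library total, for miRNAs with at least 20 reads in 1 of the 2 libraries, called at 2-fold. Folds are ratios of shares with a 95% exact conditional Clopper-Pearson interval, and ratios of arm ratios have an exact conditional interval. Alternatives used edgeR 4.0.16 (TMM factors), DESeq2 1.42.0 (size factors), totals without the 10 most abundant miRNAs, 5 added to each count, 1 CPM added to deposited CPM, a 4-fold threshold, and minimums of 1 and 100 reads. The log2 ratios, 2-fold calls and fold intervals were tested on simulated Poisson counts. Arm shares, arm-pair ranks, profile distances and the seed search were not. Members and lists were chosen with earlier results of these data known. The text names all members, the other miR-378 rows, the muscle list, cell type markers, and the 3 profiles nearest to miR-378a-3p; miR-409 was named after its values were seen. Sequences are from RefSeq, and host genes from GENCODE release 29. Python 3.11.15 with scipy 1.17.1 and R 4.3.3 were used.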

Additional observations from a re-analysis of the deposited data

How the results depend on the processing

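No paired analysis was possible because each group has 1 library. Reads of miR-378a-3p were summed with those of miR-378c, miR-378d, miR-378i and miR-422a. For EVEN over LacZ the log2 ratio of this sum went from -0.59 to -0.18 with size factors. It was also -0.18 with totals without the 10 most abundant miRNAs. For ODD over LacZ it went from -1.87 to -0.58 with TMM factors, -0.42 with size factors and -1.06 with the reduced totals; for EVEN over ODD from 1.28 to 0.25 with TMM and 0.23 with size factors; for EVEN over the input from -0.27 to 0.36 with reduced totals. For ODD over the input it went from -1.55 to -0.86, -0.38 and -0.53 under these 3 scalings, and for LacZ over the input from 0.32 to -0.29, 0.035 and 0.54. Of the 2 tested members, ODD over LacZ called 2, and 1 with TMM, size factors or a 4-fold threshold. Of all tested miRNAs, 70.3% were called lower there by library totals, 34.3% with TMM and 32.0% with size factors. EVEN over ODD called 2, and 0 under any of the 3 scalings or at 4-fold. Of all tested, 37.9% were called higher there by library totals, and 9.85%, 9.36% and 22.7% with TMM, size factors and reduced totals. EVEN over the input called 0, and 1 with TMM, where 60.8% of all tested were called lower. ODD over the input called 2, 1 with TMM, reduced totals or 4-fold, and 0 with size factors. Every log2 ratio of a comparison shifts by the same amount under a scaling, and arm shares do not change. miR-378a-5p kept its call against LacZ under every alternative run, at -3.71 to -4.15 for EVEN and -3.97 to -5.42 for ODD.

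Counts of called miRNAs over all tested moved more than 1.5 times in these cases. Higher in EVEN over LacZ went from 28 to 43 (size factors), 44 (reduced totals), 149 (minimum of 1 read) and 15 (minimum of 100), and lower from 148 to 248 and 80 under the 2 minimums. Higher in ODD over LacZ went from 39 to 66 (TMM), 68 (size factors) and 155 (1 read), and lower from 211 to 103, 96, 517 and, at 100 reads, 108. Higher in EVEN over ODD went from 77 to 20, 19, 46 (reduced totals), 260 (1 read) and 39 (100 reads), and lower from 37 to 64 (TMM), 64 (size factors) and 83 (1 read). Higher went from 85 to 677 and 43 at the 2 minimums in EVEN over the input, from 61 to 108 (size factors), 102 (reduced totals) and 412 (1 read) in ODD over the input, and from 86 to 478 and 45 at the minimums in LacZ over the input, where lower went from 163 to 246 (TMM) and 106 (100 reads). At 1 read the added 0.5 sets many calls. Depth limits EVEN most: miR-378a-5p rests on 18 reads there.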

Other observations

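For miR-378a-5p only the same 133 miRNAs, with at least 20 reads in every library, were compared. miR-378a-5p itself missed that minimum, with 18 reads in EVEN. miRNAs below it were not compared, so a nearer profile among them was not looked for. Among the 133, the profiles most like that of miR-378a-5p over the 4 libraries were further away than those of the 3p arm. Chosen after the values were seen, by the same distance, they were miR-7-5p at 1.69, miR-1180-3p at 2.12 and miR-125a-5p at 2.47, where the median of the 133 miRNAs was 3.55. miR-7-5p had 2981 CPM in EVEN, 1597 in ODD, 22339 in LacZ and 11153 in the input. miR-1180-3p had 323 CPM in EVEN, 209 in ODD, 3077 in LacZ and 125 in the input, so it too was far higher in LacZ than in the other 3 libraries.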
